A study of Mus musculus with 15 samples.

Results

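D218Y and D218G replace the same aspartate of the transcription factor GATA1, one with tyrosine and the other with glycine, and here the cells carrying one were compared directly with the cells carrying the other. The members were the 6 arrays whose titles name these 2 changes, 3 for D218Y and 3 for D218G, of 15 arrays in the series. D218Y stood for G1E cells expressing GATA1(D218Y)-ER, and D218G for G1E cells expressing GATA1(D218G)-ER. The other 9 arrays came from G1E cells expressing R216W, R216Q or wild type GATA1-ER, again 3 arrays each. G1E is a mouse proerythroblast line without functional GATA1, so the GATA1 activity in every group came from a fusion of GATA1 to an estrogen receptor domain. Every group was exposed to 100 nM estradiol during the 24 hours before harvest to activate the fusion; uninduced cells were not analysed here. The arrays are labelled as biological replicates. The labels do not state the number of separately transduced lines for a construct, so that line and amino acid change cannot be told apart, and a p-value here reflects only how far the cultures of a line differ from each other.

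GATA1 drives red cell and megakaryocyte maturation. It switches on the genes for haemoglobin, haem and the red cell membrane, and it shuts off progenitor genes such as Gata2 and Kit. Its amino-terminal zinc finger, in which both altered residues lie, touches DNA on one face and binds the cofactor FOG1 (gene Zfpm1) on another, and much of the activation and repression by GATA1 depends on FOG1. Replacement of one GATA factor by another at shared sites, often called the GATA switch, accompanies erythroid maturation, whereas mast cells keep GATA2.

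The values were log2 RMA values, 1 per gene and array, for 19933 genes. A difference below is the mean of the 3 D218Y arrays minus the mean of the 3 D218G arrays, on the log2 scale, with limma's standard error, and a gene is said to have risen or fallen in D218Y where its adjusted p over all genes was below 0.05. The 2 lines separated cleanly: the first principal component of the 6 arrays held 80.2% of the variance with D218Y at -22.93 to -19.90 and D218G at 15.94 to 25.31. One D218G array, replicate 3, was unlike the other members of its line. It lay at 17.10 on component 2 (12.4% of the variance), against -3.88 and -9.75 for D218G replicates 1 and 2. Its median over genes was 6.37, which is close to the D218Y arrays (6.38, 6.43 and 6.41) and below the other D218G arrays (6.51 and 6.55). In 3340 genes, 16.8% of those tested, it lay over 0.25 from the mean of D218G replicates 1 and 2. Counts and lead genes are therefore given with and without it, and the largest shift on leaving it out among the 171 genes of the naming rule was 0.18. Many erythroid markers were high in both lines: the 12 measured haem synthesis genes averaged 10.37 to 10.41 in the D218Y arrays and 11.07 to 11.13 in the D218G arrays. Others were not high in D218Y, where the 6 measured globins averaged 6.61 to 6.71, with 3 of them below the array median, and Slc4a1 stood at percentile 55.1 of all genes. Adult alpha- and beta-globin had no probe set with 1 symbol and were not analysed here.

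In D218Y cells 3476 genes rose and 3107 fell, 6583 in all or 33.0% of the genes tested (17.4% rose and 15.6% fell). Counts for gene lists below are to be read against these shares. Calls were more frequent at higher levels: of the 9966 genes above the median intensity 6147 were called, 3462 higher and 2685 lower. For lists of highly expressed genes the shares over all genes are therefore a low yardstick. Most differences were small. The median size of a called difference was 0.29, the smallest was 0.09, and 301 genes (1.51%) differed by 2-fold or more, 205 higher and 96 lower in D218Y. Without D218G replicate 3 the count was 9176 genes, or 46.0%, with 3945 higher (19.8%) and 5231 lower (26.2%). Of the 6583 genes, 6285 kept their call and direction without that array, 0 were called the opposite way and 298 lost the call. The 2891 genes gained without it were 537 higher and 2354 lower in D218Y. All 301 genes past 2-fold were still called without it, and 293 of them were still past 2-fold. The number of small falls also depended on the scale: with each array centred on its median, 3750 genes rose and 1615 fell (69.9% of calls were rises, against 52.8% as deposited), and the median difference over all genes, -0.04 as deposited, became 0.03. Without replicate 3 of D218G, centring moved that median to 0.06, against -0.06 as deposited. The differences of single genes named below were large against these shifts unless a value says otherwise.

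**Figure D1:**
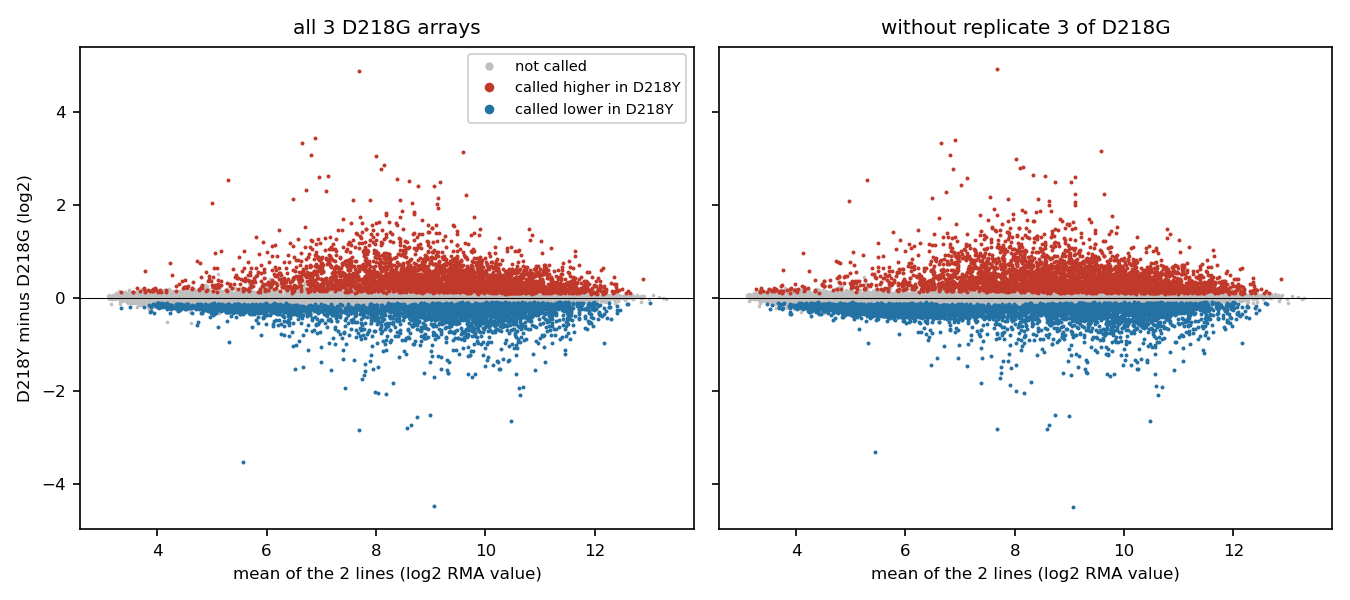
D218Y minus D218G (log2) against the mean level of the 2 lines (log2 RMA value), 1 point per gene, with all 3 D218G arrays on the left and without D218G replicate 3 on the right. The largest differences sat in the same place in both panels, and of the 2891 calls added on the right 2354 were falls.

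Gata1 transcript was abundant in both lines and slightly lower in D218Y. It read 12.07, 12.05 and 12.08 in D218Y cells, against 12.35, 12.33 and 12.38 in D218G cells, a difference of -0.29 ± 0.03 (adjusted p = 2.20e-06), and -0.28 without D218G replicate 3. No D218Y array overlapped a D218G array. An exact permutation test (two-sided) of the 6 arrays gave p = 0.1, and with 3 a line no smaller p can be had. Transcript of the fusion and of the cells' own disrupted gene are not told apart by this value. Tal1, an erythroid factor that binds DNA together with GATA1, read 9.53, 9.51 and 9.53 in D218Y cells, against 10.21, 10.19 and 10.23 in D218G cells, and fell by 0.69 in D218Y (-0.69 ± 0.04, adjusted p = 1.28e-09, and -0.68 without D218G replicate 3). Zfpm1, the gene for FOG1, fell by 0.21 (-0.21 ± 0.03, adjusted p = 1.88e-04). The Zfpm1 call was lost with the arrays centred on their medians (-0.14, adjusted p = 0.0526), and also when D218G replicate 3 was left out on that scale (-0.11, adjusted p = 0.108). Klf1, a factor that switches on globin and membrane genes, fell by 0.28 (-0.28 ± 0.04, adjusted p = 2.71e-05). Lmo2, the bridging protein of the same complex, was at 0.02 ± 0.04 (adjusted p = 0.663). Ldb1 and Gfi1b were at -0.12 ± 0.03 and -0.12 ± 0.03 (adjusted p = 0.0143 and 0.0116), and both calls were lost with the arrays centred on their medians; Ldb1 turned to a value near 0 with a positive sign when D218G replicate 3 was left out as well. Of 22 measured cofactors and partners of GATA1 and GATA2, 8 rose and 8 fell, and without D218G replicate 3 it was 7 and 8. With centred arrays 7 rose and 3 fell, and 10 and 3 without D218G replicate 3. Apart from Gata2 itself (3.14 ± 0.04), the differences in this group were at most 0.80 in size. Ssbp2, a partner of Ldb1, had the largest fall in the group (-0.80 ± 0.04, adjusted p = 2.53e-10).

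Some red cell genes were much lower in D218Y than in D218G. Slc4a1, the band 3 anion exchanger that anchors the red cell membrane to its skeleton, was the largest fall. It read 6.77, 6.93 and 6.72 in D218Y cells, against 11.30, 11.32 and 11.27 in D218G cells, a difference of -4.49 ± 0.05 or 22.5-fold (adjusted p = 4.64e-16), and -4.51 without D218G replicate 3. Its levels in D218G were in the upper part of the array range and those in D218Y close to the middle of it. Tmod1, a cap for the ends of skeletal actin filaments, read 6.29, 6.38 and 6.15 in D218Y cells, against 9.09, 9.07 and 9.18 in D218G cells (difference -2.85 ± 0.06, -2.81 without D218G replicate 3). Dmtn, dematin, which bundles actin in the red cell skeleton, read 7.77, 7.67 and 7.75 in D218Y cells, against 10.31, 10.23 and 10.20 in D218G cells (-2.51 ± 0.05, -2.54 without it). In none of these 3 genes did a D218Y array come within 2-fold of a D218G array. Of 20 measured genes for band 3, its partners and other membrane proteins, 15 fell and 4 rose, with a median of -0.47, and 16 fell and 4 rose without D218G replicate 3; the median over all genes was -0.04. The falls included Rhd, a Rh blood group protein (-1.26 ± 0.04), Epb42, protein 4.2 of the band 3 complex (-1.002 ± 0.08), and Cd47, the surface signal against phagocytosis (-0.81 ± 0.04). The 4 rises were Slc29a1, Slc2a1, Car1 and Bsg, a nucleoside transporter, a glucose transporter, a carbonic anhydrase and basigin, at 0.76, 0.62, 0.37 and 0.10. Among 12 genes of the spectrin and actin skeleton 7 fell and 1, Tpm3, rose, and the counts without D218G replicate 3 were again 7 and 1.

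**Figure D2:**
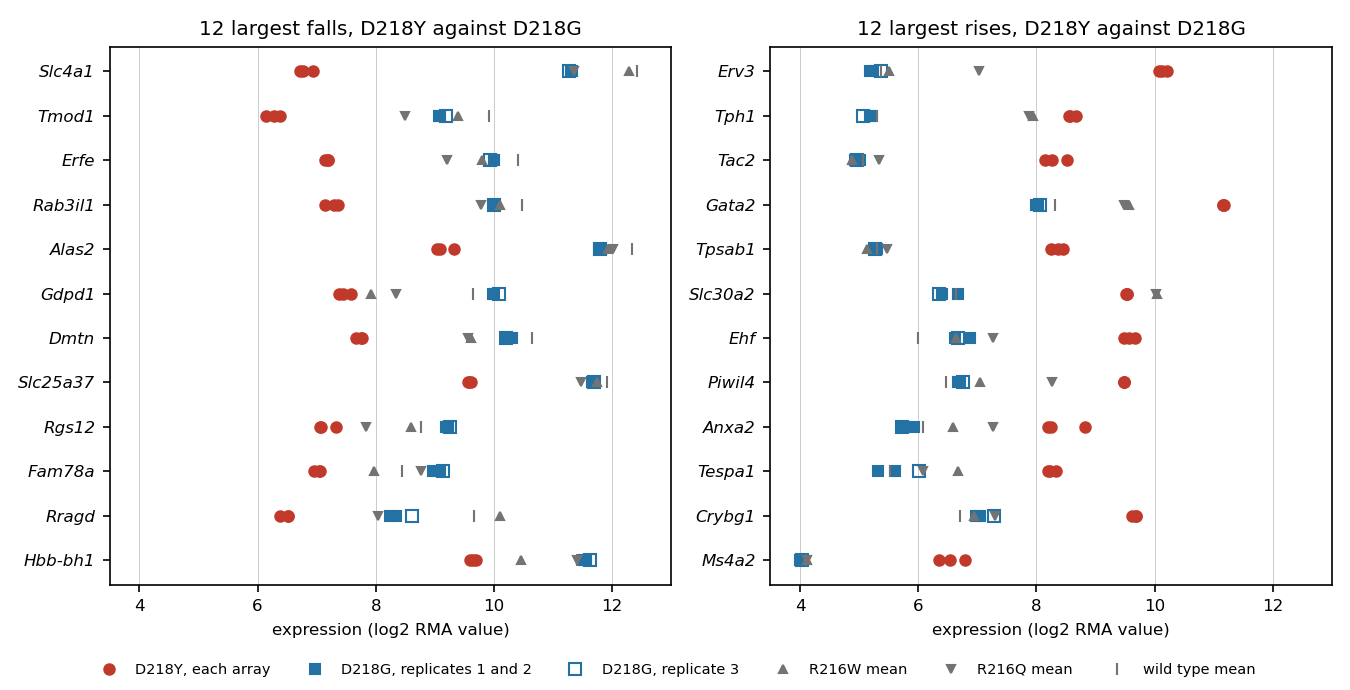
Level (log2 RMA value) of the 12 largest falls (left) and 12 largest rises (right) in D218Y against D218G, with every D218Y and D218G array as a point and the means of the other 3 lines in grey. Slc4a1 lay between 6.72 and 6.93 in the D218Y arrays and between 11.27 and 11.32 in the D218G arrays, and for no gene shown did the 2 lines overlap.

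Genes for haem and for the iron it needs were mostly lower in D218Y. Alas2, the erythroid form of the first and rate-limiting enzyme of haem synthesis, read 9.32, 9.03 and 9.09 in D218Y cells, against 11.78, 11.80 and 11.79 in D218G cells (difference -2.65 ± 0.06, adjusted p = 1.86e-13), and the difference was -2.65 without D218G replicate 3. The highest D218Y array lay more than 2 log2 units below the lowest D218G array. Of 12 measured genes of haem synthesis 9 fell, 1 rose and 2 were not called, with a median of -0.53, and the counts did not move without D218G replicate 3. The falls ran along the pathway, with Alad (-0.96 ± 0.03), Uros (-1.24 ± 0.04), Urod (-0.46), Cpox (-0.23) and Fech (-0.82), the enzyme that inserts the iron. Abcb10, a transporter of the inner mitochondrial membrane, fell by 1.20 (-1.20 ± 0.04). The gene that rose was Alas1, the form of the first enzyme found in all tissues, at 0.25. Ppox and the chaperone gene Clpx were at -0.05 and -0.09. Slc25a37, mitoferrin, which carries iron into mitochondria, read 9.61, 9.56 and 9.58 in D218Y cells, against 11.70, 11.66 and 11.70 in D218G cells (-2.10 ± 0.03, adjusted p = 3.18e-15). Erfe, the hormone by which erythroid cells lower hepcidin, read 7.18, 7.18 and 7.14 in D218Y cells, against 9.998, 10.01 and 9.93 in D218G cells (-2.81 ± 0.04). Of 18 iron genes 10 fell and 3 rose (15.6% and 17.4% over all genes), with 10 and 4 without D218G replicate 3. The rises were Hmox1, which breaks haem down and read 8.89, 8.61 and 8.62 in D218Y cells, against 7.15, 6.94 and 7.34 in D218G cells (1.57 ± 0.09), Tfr2, the second transferrin receptor (1.03 ± 0.06), and Aco1, an iron-sensing RNA-binding protein (0.13). Tfrc, the main transferrin receptor, fell by 0.34 (-0.34 ± 0.03). With the arrays centred on their medians 9 of the 18 iron genes fell and 3 rose. Without D218G replicate 3 on that scale 9 fell and 7 rose, so the excess of falls among iron genes was small there.

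The region before the Alas2 start is shown because Alas2 is the one gene of the 12 largest falls whose 250 bases before the start hold the GATA motif searched, AGATAA on either strand. The RefSeq promoter table (GRCm38.p6) held 8 of those 12 genes. Some genes had several windows there, and only the first listed window of each was searched. The bases run 5′ to 3′ up to the annotated start, chrX:150547167-150547416 on the + strand, and capitals mark the motif, which ends 80 bases before the start and is on the opposite strand there.
Alas2: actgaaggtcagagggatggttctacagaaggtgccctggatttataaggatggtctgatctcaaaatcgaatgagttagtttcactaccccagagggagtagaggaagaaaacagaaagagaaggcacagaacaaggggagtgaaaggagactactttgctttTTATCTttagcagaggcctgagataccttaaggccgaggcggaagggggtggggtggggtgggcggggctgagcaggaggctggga

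All 6 globin genes that could be measured fell in D218Y, with and without D218G replicate 3, and their median difference was -1.25. These are embryonic or minor globins. Hbb-bh1, an embryonic beta-like globin, read 9.69, 9.64 and 9.59 in D218Y cells, against 11.52, 11.56 and 11.63 in D218G cells (-1.93 ± 0.10, adjusted p = 1.58e-09). Hbb-y, another embryonic beta-like globin, read 5.64, 5.81 and 5.81 in D218Y cells, against 7.26, 7.13 and 7.45 in D218G cells (-1.52 ± 0.11), and Hba-x, embryonic zeta globin, averaged 6.65 in D218Y cells and 7.63 in D218G cells (-0.98 ± 0.07). The D218Y arrays lay below every D218G array in all 6 genes, as in 20.6% of all genes tested. The minor alpha-like genes Hbq1b and Hbq1a differed by -1.53 and -0.95, and since they are near copies of each other the split between them is uncertain. In the other lines the mean of Hba-x was 9.13 in R216W and 9.65 in wild type, above both D218 lines, and that of Hbb-y was 7.67 in wild type, again above both. Hbb-bh1 was higher in D218G than the R216W mean of 10.46.

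Of 30 measured regulators of red cell maturation 17 fell and 6 rose, and without D218G replicate 3 it was 19 and 7. These falls were mostly small, with a median of -0.13 over the list, and with the arrays centred on their medians 10 fell and 7 rose. On that scale and without D218G replicate 3, 9 fell and 9 rose, so the excess of falls was gone. Trim10, a ubiquitin ligase of late erythroid cells, had the largest fall and read 8.68, 8.64 and 8.59 in D218Y cells, against 9.96, 9.98 and 9.97 in D218G cells (-1.33 ± 0.03). Klf3, a repressor of the Kruppel-like family, fell by 0.75 (-0.75 ± 0.03), and Epor, the erythropoietin receptor, fell by 0.40 (-0.40 ± 0.04). Lyl1, a relative of Tal1 that is expressed in progenitors, was the largest rise of the list and read 10.28, 10.24 and 10.21 in D218Y cells, against 9.25, 9.27 and 9.23 in D218G cells (0.99 ± 0.05, adjusted p = 4.39e-10). Among 23 genes of late erythroid remodelling 14 fell and 3 rose, 15 and 3 without D218G replicate 3. The largest fall there was Cpeb4, a translational repressor of terminal erythropoiesis, at -1.64 ± 0.04, followed by Trim10 and then by Hebp1, a haem-binding protein, at -0.88 ± 0.03. In bulk RNA of this kind, fewer mature cells and less of a transcript in each cell cannot be told apart.

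Gata2, the GATA factor of progenitors and mast cells, was among the largest rises. It read 11.18, 11.15 and 11.16 in D218Y cells, against 7.99, 8.02 and 8.06 in D218G cells, a difference of 3.14 ± 0.04 or 8.8-fold (adjusted p = 1.73e-15), and 3.16 without D218G replicate 3. D218G was the lowest of the 5 lines for Gata2, with the wild type mean at 8.31, and D218Y the highest. Kit, the stem cell factor receptor, read 11.55, 11.54 and 11.53 in D218Y cells, against 10.04, 10.05 and 10.10 in D218G cells (1.47 ± 0.04). Myb and Myc, transcription factors of dividing progenitors, rose by 0.97 and 0.65 (0.97 ± 0.03 and 0.65 ± 0.05). Hhex, a homeobox factor, read 9.98, 9.99 and 9.97 in D218Y cells, against 7.55, 7.41 and 7.74 in D218G cells (2.42 ± 0.10, adjusted p = 1.38e-10), and Spi1, the myeloid ETS factor PU.1, read 10.02, 9.83 and 9.80 in D218Y cells, against 8.26, 8.26 and 8.46 in D218G cells (1.56 ± 0.10). Of 28 measured progenitor genes 11 rose, 3 fell and 14 were not called, and without D218G replicate 3 it was 12 and 4. The median of this list was 0.03. The 3 falls were Fli1, an ETS factor of megakaryocytes, Runx1, and Egfl7, at -0.86, -0.35 and -0.27. Several genes of blood stem cells were at or near 0, among them Cd34 (-0.05), Meis1 (-0.03), Hoxa9 (-0.09) and Flt3 (0.06).

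**Figure D3:**
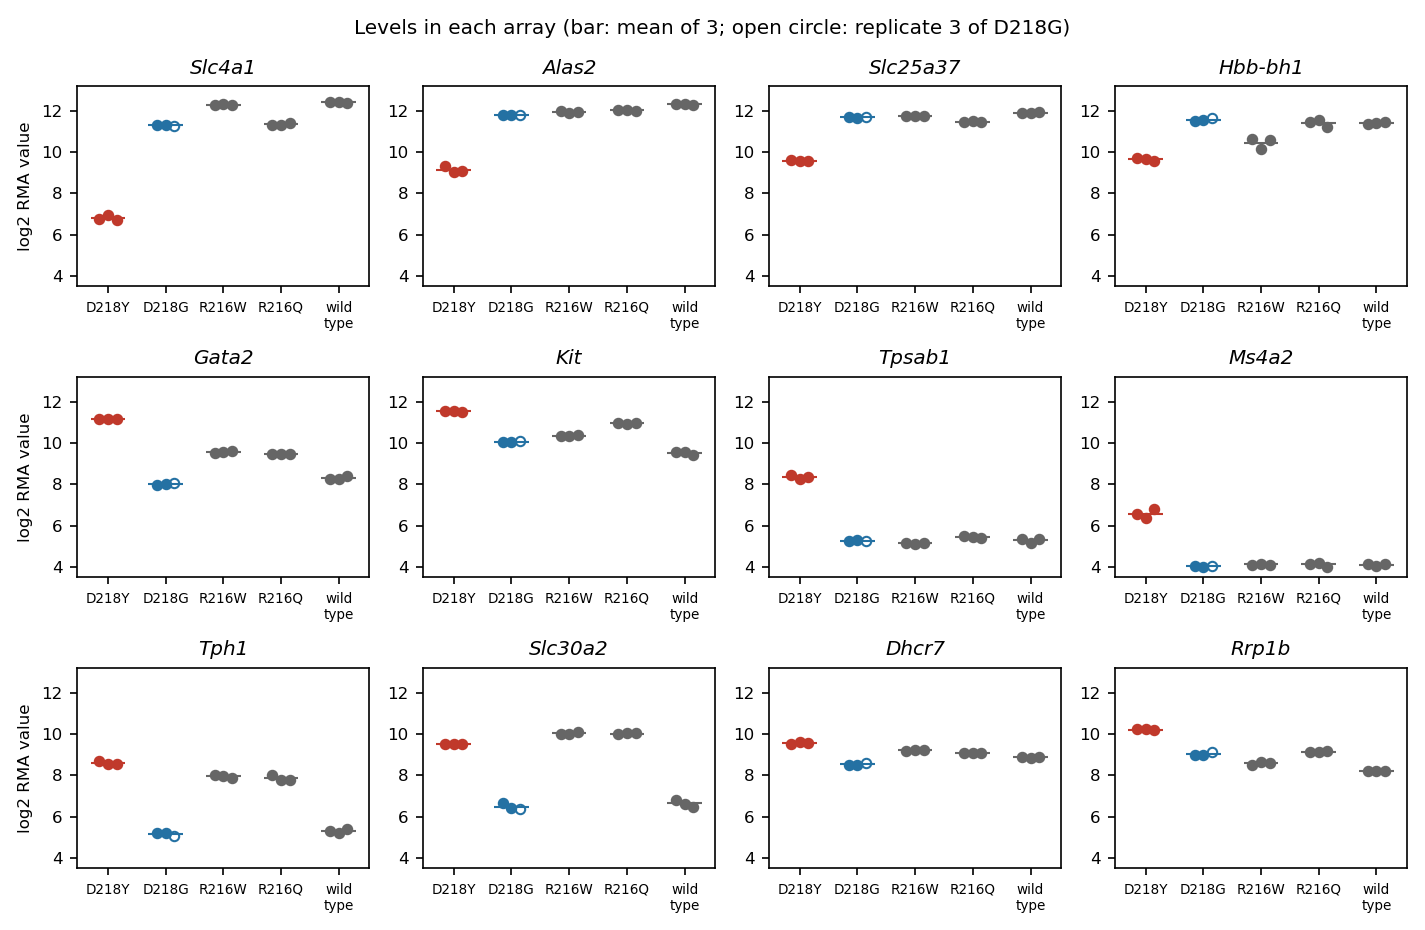
Level (log2 RMA value) of 12 genes in every array of the 5 lines, with bars at the mean of 3 arrays and replicate 3 of D218G as an open circle. Red cell genes (top row) were lowest in D218Y, Gata2, Kit, Tpsab1, Ms4a2 and Tph1 were highest in D218Y, Slc30a2 was higher still in the R216 lines, and Dhcr7 was lowest in D218G.

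Some genes of mast cells rose in D218Y while others stayed near the bottom of the array range. Tpsab1, a mast cell tryptase, read 8.45, 8.25 and 8.36 in D218Y cells, against 5.26, 5.29 and 5.26 in D218G cells (3.08 ± 0.06, adjusted p = 5.15e-14, and 3.08 without D218G replicate 3). Ms4a2, the beta chain of the high-affinity IgE receptor, read 6.54, 6.36 and 6.78 in D218Y cells, against 4.05, 3.996 and 4.04 in D218G cells (2.53 ± 0.08, adjusted p = 1.14e-11, and 2.54 without it). The means of the other 4 lines were low for both genes, between 4.03 and 4.13 for Ms4a2 and between 5.14 and 5.47 for Tpsab1. Tph1, which makes serotonin precursor in mast cells and elsewhere, read 8.67, 8.57 and 8.55 in D218Y cells, against 5.19, 5.22 and 5.07 in D218G cells (3.44 ± 0.07); it was also high in R216W (7.95) and R216Q (7.87) and low in wild type (5.30). Hdc, which makes histamine, rose by 1.06, and Cpa3, a mast cell carboxypeptidase, by 0.65. Of 20 measured mast cell genes 7 rose, including Kit and Gata2, and 1, Mcpt2, fell, while without D218G replicate 3 it was 7 and 2. The median of the list was 0.02, and its mean level was 6.08 to 6.11 in the D218Y arrays and 5.35 to 5.38 in the D218G arrays. The genes not called include defining mast cell genes: Fcer1a, the alpha chain of the IgE receptor, was at 0.02 and lay at the 6.63rd percentile of all genes in D218Y and the 6.12th in D218G. Cma1, a mast cell chymase, was at -0.02, at percentiles 21.0 and 20.4, Mcpt4 was at -0.07, at percentiles 10.2 and 10.8, and Mitf, a mast cell transcription factor, was at 0.02, at percentiles 18.3 and 17.2.

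The Ms4a2 window is shown because it held the GATA motif most often, 3 times in the 250 bases before the start. It was set against the first listed windows of the 9 of the 12 largest rises that the promoter table held. The bases run 5′ to 3′ up to the annotated start, chr19:11623720-11623969 on the - strand of GRCm38.p6, and capitals mark AGATAA or its reverse complement, of which the nearest ends 5 bases before the start.
Ms4a2: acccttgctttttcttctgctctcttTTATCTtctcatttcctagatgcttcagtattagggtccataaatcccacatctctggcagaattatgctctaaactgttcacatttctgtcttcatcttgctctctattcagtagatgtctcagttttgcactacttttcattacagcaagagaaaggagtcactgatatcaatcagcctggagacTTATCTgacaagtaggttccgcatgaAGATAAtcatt

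The same letters were searched in the first listed window of each gene in the promoter table, and further windows of a gene were not searched. In the 300-base windows around the start, AGATAA on either strand was found in 12.7% of the 71 genes with a window among the 2-fold falls, in 7.59% of the 158 among the 2-fold rises, and in 9.55% of all 15610 genes with a window. Over all called genes it was found in 7.40% of falls and 5.96% of rises. The CACCC-type motif of Kruppel-like factors, CCNCNCCC on either strand, was found in 80.3% of the 2-fold falls, 71.5% of the 2-fold rises and 59.3% of all genes. Over all called genes it was found in 66.9% of falls and 70.2% of rises. The AP-1 motif TGAGTCA was found in 2.82%, 2.53% and 4.53% of the 3 sets. These are matches of letters in a short window and give no count of sites in use.

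Markers of lymphoid cells, granulocytes and monocytes showed little, whereas Vim and some megakaryocyte genes differed more. None of the 19 measured lymphoid genes was called (4 fell without D218G replicate 3), and their summed level was 95.72 to 96.51 in the D218Y arrays and 95.88 to 98.60 in the D218G arrays. Unadjusted, limma's p was under 0.05 for 2 of the 19. Of 25 granulocyte and monocyte genes 0 rose and 3 fell, and 9 fell without D218G replicate 3; their summed level was 138.14 to 140.38 in the D218Y arrays and 139.01 to 143.10 in the D218G arrays. These falls were small, S100a9, Tyrobp and Irf8 at -0.31, -0.23 and -0.19, and each call was lost under at least 1 other setting. Of 17 genes of stroma and endothelium 1 rose and 2 fell, and without D218G replicate 3 it was 1 and 6. The rise was Vim, vimentin, an intermediate filament that erythroid cells lose as they mature, which read 9.48, 9.40 and 9.29 in D218Y cells, against 8.04, 8.06 and 8.16 in D218G cells (1.30 ± 0.05). Of 19 measured megakaryocyte genes 6 fell, 1 rose and 12 were not called, with a median of -0.10. Without D218G replicate 3 it was 10 falls and 2 rises, and with centred arrays as well 4 and 2. Tubb1, the platelet beta-tubulin, read 6.88, 6.92 and 7.21 in D218Y cells, against 8.51, 8.46 and 8.77 in D218G cells (-1.58 ± 0.09), Itgb3, a platelet integrin, fell by 1.12 (-1.12 ± 0.05) and Gp9 by 0.88 (-0.88 ± 0.06). Pf4 and Itga2b were at 0.00 ± 0.05 and -0.18 ± 0.07 (adjusted p = 0.966 and 0.0509), and Itga2b passed the threshold without D218G replicate 3 (-0.24). Whether cells of another type had a part in any difference was not tested.

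The remaining large rises came from genes with diverse roles. Erv3, which derives from an endogenous retrovirus, came first among the rises and read 10.21, 10.12 and 10.07 in D218Y cells, against 5.23, 5.18 and 5.36 in D218G cells (4.88 ± 0.09 or 29.4-fold, adjusted p = 2.89e-14). Its R216Q mean was 7.02, while R216W and wild type were at 5.50 and 5.37, close to D218G. Tac2, the precursor of neurokinin B, read 8.51, 8.14 and 8.27 in D218Y cells, against 5.02, 4.93 and 4.96 in D218G cells (3.33 ± 0.09). Piwil4, a PIWI protein, read 9.49, 9.48 and 9.49 in D218Y cells, against 6.71, 6.68 and 6.75 in D218G cells (2.77 ± 0.06), and Anxa2, a calcium-dependent membrane-binding protein, read 8.82, 8.20 and 8.25 in D218Y cells, against 5.93, 5.74 and 5.73 in D218G cells (2.62 ± 0.15). For Anxa2 the first D218Y array was the highest of its line, and all 3 lay far above D218G. Slc30a2, a zinc exporter, read 9.52, 9.52 and 9.52 in D218Y cells, against 6.67, 6.41 and 6.35 in D218G cells (3.05 ± 0.08); R216W and R216Q were higher than D218Y, both at 10.03, and wild type was at 6.64. Tespa1, named for its expression in thymocytes, read 8.33, 8.19 and 8.23 in D218Y cells, against 5.61, 5.33 and 6.01 in D218G cells, with D218G replicate 3 the highest of its line, and the difference was 2.60 ± 0.13 with it and 2.78 without it. Crybg1 rose by 2.56 (2.56 ± 0.07). Over the 12 largest rises the difference ran from 2.53 to 4.88, and over the 12 largest falls from -4.49 to -1.93; leaving out D218G replicate 3 moved them by at most 0.18.

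Among transcription factors of the ETS family, which bind purine-rich sites and include Spi1 and Fli1, 9 of 24 rose and 5 fell, with the same counts without D218G replicate 3. With the arrays centred on their medians it was 8 and 1. Ehf, best known from epithelia, read 9.66, 9.56 and 9.48 in D218Y cells, against 6.62, 6.87 and 6.67 in D218G cells (2.85 ± 0.07, adjusted p = 1.04e-12), and Etv5, a target of growth factor signalling, read 8.78, 8.57 and 8.68 in D218Y cells, against 7.14, 7.19 and 7.34 in D218G cells (1.46 ± 0.07). Of 28 genes of the immediate early response 7 rose and 6 fell (17.4% and 15.6% over all genes). Without D218G replicate 3 it was 7 and 10 (19.8% and 26.2% over all genes). With centred arrays 9 rose and 2 fell. Egr1, a transcription factor induced by growth factors, read 9.72, 9.66 and 9.66 in D218Y cells, against 7.57, 7.61 and 7.75 in D218G cells (2.04 ± 0.06), while Dusp1, a phosphatase that ends MAP kinase signals, read 8.85, 8.83 and 8.90 in D218Y cells, against 10.52, 10.49 and 10.52 in D218G cells (-1.65 ± 0.04). The immediate early list thus held a rise and a fall of more than 2-fold side by side, whereas the 3 ETS genes past 2-fold, Ehf, Spi1 and Etv5, all rose. Elf4 joined them without D218G replicate 3, at 1.07 against 0.95 with it. Receptors also split: Igf1r, the receptor of insulin-like growth factor, read 8.56, 8.17 and 8.32 in D218Y cells, against 6.76, 6.602 and 6.83 in D218G cells (1.62 ± 0.09) and Ifngr1 rose by 0.92 (0.92 ± 0.08), whereas Csf2rb2, a beta subunit for interleukin 3, read 10.04, 9.92 and 9.91 in D218Y cells, against 11.14, 11.19 and 11.21 in D218G cells (-1.22 ± 0.04). Csf2rb2 and Csf2rb are near copies, and Csf2rb fell as well, by 0.54. Il4ra was at -0.02 ± 0.06 (adjusted p = 0.785), and its sign turned with the arrays centred on their medians.

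Among 302 genes tested whose symbols start with Mir 19 rose and 24 fell (31 and 74 without D218G replicate 3). Calls were rarer among them than over all genes, of which 17.4% rose and 15.6% fell (19.8% and 26.2% without that array). Calls also depended on level: of the 9966 genes above the median intensity, 6147 were called. The Mir genes were not compared with genes of like level. The 2 past 2-fold, both lower, were Mir144 and Mir451a, which lie next to each other and are activated by GATA1 during red cell maturation. They lie outside the naming rule and were chosen after their values were seen. Mir144 read 7.20, 6.87 and 6.85 in D218Y cells, against 8.89, 8.80 and 9.29 in D218G cells (-2.02 ± 0.19, adjusted p = 8.65e-07), and the difference was -1.87 without D218G replicate 3. Mir451a read 7.501, 7.17 and 7.21 in D218Y cells, against 8.68, 8.81 and 8.87 in D218G cells (-1.49 ± 0.12, adjusted p = 2.01e-07), and -1.45 without that array. The D218Y and D218G arrays did not overlap, and the means of R216W, 6.38 and 7.01 for the 2 genes, were below those of D218Y. Without D218G replicate 3, Mir19a and Mir19b-1, of the cluster known for Myc control, passed 2-fold the other way, at 1.15 and 1.01, against 0.99 and 0.86 with all arrays. The probe sets are annotated to the miRNA genes, and the array does not measure the mature miRNAs as such. Their mature sequences are shown 5′ to 3′ because these are the miRNA genes past 2-fold with all arrays; capitals mark the seed, bases 2 to 8, which pairs with target transcripts. They lie on chromosome 11, + strand (RefSeq, GRCm38.p6), at chr11:78073010-78073032, chr11:78073047-78073066 and chr11:78073186-78073207 in the order given, and no 2 of the 3 share a seed.
mmu-miR-144-5p: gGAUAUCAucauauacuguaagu
mmu-miR-144-3p: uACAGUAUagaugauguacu
mmu-miR-451a: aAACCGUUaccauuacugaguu

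Cell cycle genes were slightly lower in D218Y. Of 32 genes of DNA replication 22 fell and 0 rose, and of 31 genes of mitosis 25 fell and 1 rose; without D218G replicate 3 the counts were 22 and 1, and 25 and 1. The medians were -0.22 and -0.32. The counts shrank on another scale: with the arrays centred on their medians 14 replication genes and 19 mitosis genes fell, and without D218G replicate 3 on that scale 10 and 17 fell, with 2 and 1 rises. Pttg1, securin, which guards sister chromatid separation, read 9.06, 9.07 and 9.05 in D218Y cells, against 9.93, 9.93 and 9.93 in D218G cells (-0.87 ± 0.04). Ccne1, cyclin E1, read 10.96, 10.95 and 10.96 in D218Y cells, against 11.63, 11.63 and 11.63 in D218G cells (-0.67 ± 0.04), and Gins2, part of the replicative helicase, fell by 0.73 (-0.73 ± 0.04). The 2 lines did not overlap in these 3 genes, which were picked by size of difference. The replication genes Pcna, Rrm2 and Uhrf1 were at -0.06, -0.03 and -0.01. Of 24 genes that restrain the cycle 12 fell and 4 rose (14 and 4 without D218G replicate 3), and with centred arrays 9 fell and 5 rose. Gadd45a, a growth arrest gene, fell by 0.85 (-0.85 ± 0.06), and Cdkn2c, an inhibitor of cyclin-dependent kinases, by 0.79 (-0.79 ± 0.05), while Tob1, an antiproliferative protein, rose and read 9.37, 9.41 and 9.35 in D218Y cells, against 8.16, 8.24 and 8.23 in D218G cells (1.17 ± 0.05).

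Genes that make ribosomes rose almost as a block. Of 35 measured genes of ribosome biogenesis 32 rose and 1 fell in D218Y, with and without D218G replicate 3, and their median was 0.44; 31 to 33 rose under every normalization, fit and omitted array tried. The mean level of the list was 10.98, 10.98 and 10.99 in the D218Y arrays and 10.50, 10.49 and 10.54 in the D218G arrays. In 31 of the 32 the D218Y arrays also lay above all 12 other arrays of the series, a position held in 75.2% of all rises and by 14.0% of all genes. Rrp1b, a nucleolar processing factor, read 10.23, 10.24 and 10.19 in D218Y cells, against 8.998, 8.99 and 9.13 in D218G cells (1.18 ± 0.05, adjusted p = 9.27e-11), Polr1e, a subunit of RNA polymerase I, read 9.96, 9.91 and 9.87 in D218Y cells, against 8.996, 9.01 and 9.16 in D218G cells (0.86 ± 0.06), and Ddx21, a nucleolar helicase, read 11.07, 11.07 and 11.09 in D218Y cells, against 10.28, 10.26 and 10.30 in D218G cells (0.80 ± 0.04). The fall was Odc1, an enzyme of polyamine synthesis and a well known target of Myc, at -0.19. Structural proteins of the cytosolic ribosome moved much less: 6 of 32 rose and 0 fell, with a median of 0.04. Over all genes 17.4% rose and 15.6% fell, so the rises were near the share over all genes. Many of these ribosomal protein genes have near-identical copies in the genome. With centred arrays and without D218G replicate 3, 22 of the 32 passed the threshold. Of 38 mitochondrial ribosomal proteins 21 rose and 3 fell (23 and 3 without D218G replicate 3), and of 23 heat shock and chaperonin genes 15 rose and 2 fell (the same without it). Hspa5, the main chaperone of the endoplasmic reticulum, rose by 0.40 (0.40 ± 0.04). The proteasome list had 12 of 31 rises and 3 falls, 16 and 3 without D218G replicate 3. With centred arrays and without that array the proteasome list had 25 rises and 0 falls, and the mitochondrial ribosomal proteins had 32 and 0.

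**Figure D4:**
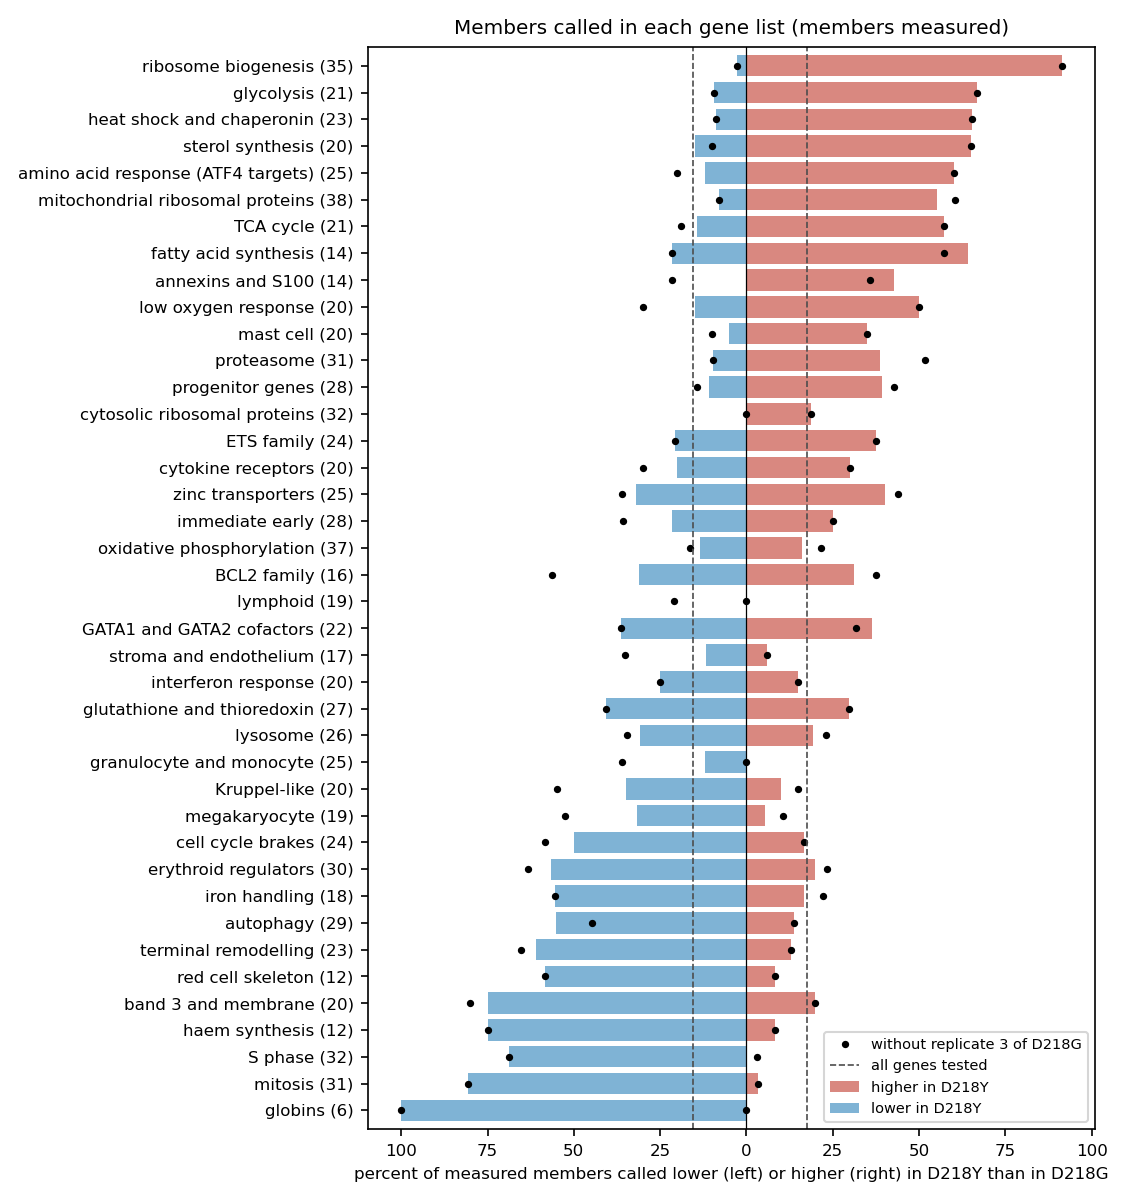
Percent of the measured members of 40 gene lists called higher (right) or lower (left) in D218Y than in D218G, with the same without replicate 3 of D218G as black dots and the percent over all genes (17.4% higher, 15.6% lower) as dashed lines. Ribosome biogenesis had 32 of 35 members higher and the globin list 6 of 6 members lower.

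Enzymes of glucose breakdown rose in D218Y. Of 21 glycolysis genes 14 rose and 2 fell, with a median of 0.40, and the counts were the same without D218G replicate 3. Hk2, a hexokinase that traps glucose in the cell, read 9.43, 9.41 and 9.37 in D218Y cells, against 7.53, 7.53 and 7.55 in D218G cells (1.86 ± 0.09 or 3.64-fold), Pgam1, phosphoglycerate mutase, read 11.56, 11.59 and 11.45 in D218Y cells, against 10.14, 10.19 and 10.21 in D218G cells (1.35 ± 0.06), and Pkm, the pyruvate kinase of most dividing cells, read 10.96, 10.91 and 10.82 in D218Y cells, against 9.84, 9.98 and 9.85 in D218G cells (1.01 ± 0.07). The 2 falls were Pklr, the pyruvate kinase of red cells and liver, at -0.38, and Pfkfb4, which sets the level of an activator of glycolysis, which read 8.41, 8.42 and 8.42 in D218Y cells, against 9.89, 9.91 and 10.03 in D218G cells (-1.53 ± 0.04). Of 21 genes of the citric acid cycle 12 rose and 3 fell, 12 and 4 without D218G replicate 3, led by Idh1 (0.65 ± 0.07) and Idh3a (0.58 ± 0.05). Of 37 subunits of oxidative phosphorylation 6 rose and 5 fell, near the shares over all genes (17.4% and 15.6%), with a median of -0.02. Without D218G replicate 3 it was 8 and 6, and with centred arrays as well 14 and 2.

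In sterol synthesis the line that stood at the edge of the series was D218G. Of 20 sterol genes 13 rose in D218Y and 3 fell, and in 10 of the 13 the D218G arrays lay below all 12 other arrays of the series, a position held in 6.62% of all rises and by 1.31% of all genes. Dhcr7, the last enzyme of cholesterol synthesis, read 9.53, 9.62 and 9.57 in D218Y cells, against 8.52, 8.49 and 8.62 in D218G cells (1.03 ± 0.04), with means of 9.22 in R216W, 9.07 in R216Q and 8.88 in wild type. Hmgcs1, which makes the precursor of mevalonate, read 10.20, 10.21 and 10.26 in D218Y cells, against 9.44, 9.35 and 9.53 in D218G cells (0.78 ± 0.05), with means of 10.996, 10.38 and 10.35 in those lines, so that D218Y was below wild type as well. Lss, lanosterol synthase, rose by 0.78 (0.78 ± 0.04). Without D218G replicate 3 it was 13 rises and 2 falls. Srebf2, the transcription factor of the pathway, was among the falls, at -0.26. In fatty acid synthesis 9 of 14 genes rose and 3 fell (8 and 3 without D218G replicate 3). Elovl6, a fatty acid elongase, read 9.39, 9.42 and 9.38 in D218Y cells, against 7.99, 7.93 and 8.06 in D218G cells (1.41 ± 0.05), and Fasn, fatty acid synthase, read 10.93, 10.93 and 10.92 in D218Y cells, against 9.84, 9.89 and 9.86 in D218G cells (1.07 ± 0.04). In 6 of the 9 the D218Y arrays lay above all other arrays, and in 1 the D218G arrays lay below them. The 3 falls were Fads1, Fads2 and Elovl1, the first 2 being desaturases of polyunsaturated fatty acids, at -0.65, -0.47 and -0.11.

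In autophagy, which clears mitochondria during red cell maturation, 16 of 29 genes fell and 4 rose (15.6% and 17.4% over all genes). Without D218G replicate 3 it was 13 and 4, and with the arrays centred on their medians 8 and 4. On that scale and without D218G replicate 3, 7 fell and 6 rose, so most of the excess of falls was gone. Atg9a, a membrane carrier of the forming autophagosome, read 9.20, 9.13 and 9.14 in D218Y cells, against 10.06, 10.06 and 10.06 in D218G cells (-0.91 ± 0.04), and Map1lc3b, the coat protein LC3B, fell by 0.60 (-0.60 ± 0.04). Lysosomal genes went both ways, 5 of 26 higher and 8 lower (6 and 9 without D218G replicate 3). The share of rises was near the 17.4% over all genes, of which 15.6% fell. With centred arrays 6 lysosomal genes were higher and 6 lower, and 9 and 7 without D218G replicate 3 as well. Ctsb, the protease cathepsin B, fell and read 10.28, 10.25 and 10.26 in D218Y cells, against 11.45, 11.41 and 11.53 in D218G cells (-1.20 ± 0.04), whereas Lgmn, the protease legumain, rose and read 9.20, 9.08 and 9.22 in D218Y cells, against 7.52, 7.504 and 7.75 in D218G cells (1.58 ± 0.07). For glutathione and thioredoxin genes the counts were 8 of 27 higher and 11 lower, the same without D218G replicate 3. With centred arrays they were 8 higher and 8 lower, and 10 and 7 without that array as well. Mgst3 and Gstt1, glutathione transferases, fell by 1.75 and 1.11 (-1.75 ± 0.08 and -1.11 ± 0.11), and Gsta4, another, rose by 1.35 (1.35 ± 0.07). Amino acid genes known as targets of ATF4 were mostly higher, 15 of 25 with 3 lower, and 15 and 5 without D218G replicate 3. Slc7a5, which imports large neutral amino acids, rose and read 12.46, 12.48 and 12.47 in D218Y cells, against 11.80, 11.86 and 11.80 in D218G cells (0.65 ± 0.03), while Slc6a9, a glycine transporter that feeds haem synthesis, fell and read 9.37, 9.38 and 9.31 in D218Y cells, against 10.68, 10.71 and 10.71 in D218G cells (-1.35 ± 0.04). In the zinc list 10 of 25 genes rose and 8 fell, 11 and 9 without D218G replicate 3; Slc30a2 was past 2-fold, and Slc39a10, a zinc importer, was at 0.98 with all arrays and 1.04 without that one.

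Set against the whole series, D218Y stood at the edge in more of the called genes than D218G did. Of the 3476 rises, the D218Y arrays lay above all 12 other arrays in 2613, and the D218G arrays below all 12 others in 230. For all genes tested these positions were held by 14.0% and 1.31%. Of the 3107 falls, the D218Y arrays lay below all others in 1899 and the D218G arrays above all others in 288, positions held by 10.9% and 1.69% of all genes. Without D218G replicate 3 these counts were 2797 and 570 of 3945 rises (15.3% and 3.57% of all genes held these positions), and 2567 and 560 of 5231 falls (15.2% and 3.37%). Both lines were at their extremes in 43 rises and 35 falls, and neither was in 676 and 955. Among the 2-fold differences D218Y was beyond all other arrays in 192 of 205 rises and 88 of 96 falls. Slc30a2 was an exception among the largest rises, since both R216 lines exceeded D218Y. For Gdpd1 the R216W mean (7.93) was near the D218Y arrays, but these still lay below all 12 others. Gdpd1 read 7.58, 7.37 and 7.45 in D218Y cells, against 9.98, 10.01 and 10.09 in D218G cells (-2.56 ± 0.07). The arrays used for these counts include those of the contrast itself, so they describe the called genes and do not test them further. The positions were read on the deposited scale and were not counted with centred arrays. On that scale the D218Y arrays had medians of 6.38, 6.43 and 6.41, below every other array except D218G replicate 3 (6.37).

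The D218 pair differed from the R216 pair. The difference between differences, D218Y minus D218G less R216W minus R216Q, was called in 5696 genes (28.6%), 3159 higher (15.8%) and 2537 lower (12.7%), and without D218G replicate 3 in 6876. The 2 pairs share no arrays. R216W against R216Q alone was called in 3369 genes (16.9%), 1644 higher (8.25%) and 1725 lower (8.65%). Erv3 had the largest positive value: it was 4.88 ± 0.09 for D218Y minus D218G and -1.52 for R216W minus R216Q, a gap of 6.39 ± 0.12. Piwil4 was next, at 2.77 ± 0.06 and -1.21 (gap 3.98 ± 0.09), then Tac2 (gap 3.79 ± 0.13), and Npl, an enzyme of sialic acid breakdown, was at 2.41 ± 0.07 and -1.07 (gap 3.49 ± 0.10). Slc4a1 had the largest negative value, -4.49 ± 0.05 and 0.94 (gap -5.43 ± 0.07). Rragd, a GTPase of amino acid sensing, was at -1.93 ± 0.08 and 2.05 (gap -3.98 ± 0.11), and Slc22a4, a transporter of ergothioneine, at -1.07 ± 0.06 and 2.28 (gap -3.35 ± 0.08). These genes were picked for the size of the gap, which favours opposite signs in the 2 pairs. For ribosome biogenesis 32 of 35 genes were higher in D218Y than in D218G, 29 of 35 were lower in R216W than in R216Q, and 34 of 35 passed the test of the gap itself. For Alas2 the gap was -2.56 ± 0.08, with R216W minus R216Q at -0.08, and for Gata2 it was 3.05 ± 0.06, with 0.09. Both gaps passed the test (adjusted p = 1.08e-11 and 1.26e-13). Sterol genes did not oppose: 10 of 20 were higher in R216W than in R216Q, and 9 had a positive and 4 a negative gap. Hmgcs1 had a gap of 0.17 ± 0.07 (adjusted p = 0.112), which is not past the threshold.

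**Figure D5:**
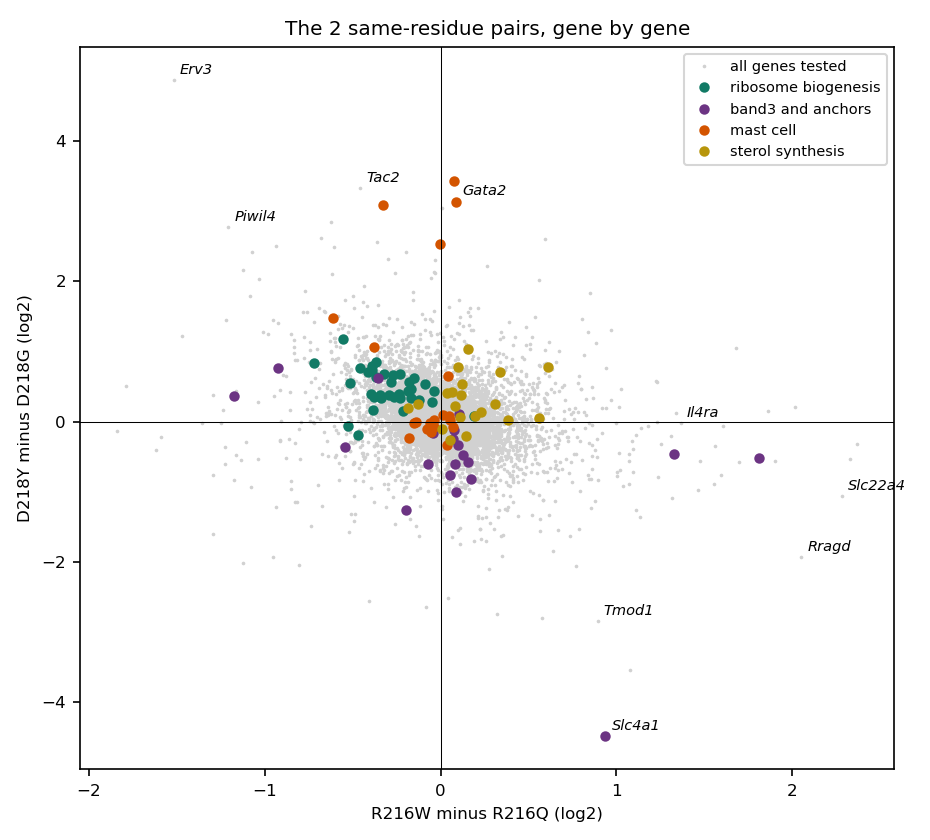
D218Y minus D218G (vertical axis, log2) against R216W minus R216Q (horizontal axis, log2), 1 point per gene, with 4 gene lists in colour. Erv3 and Piwil4 lay at the upper left and Slc4a1, Tmod1 and Rragd at the lower right, where the 2 pairs have opposite signs, and 32 of 35 ribosome biogenesis genes were higher in D218Y than in D218G.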

How the data were processed

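Total RNA of 15 cultures of G1E cells, 3 for each of 5 GATA1-ER constructs, was measured on Affymetrix arrays. The deposited values are log2 values on the RMA scale, made by the authors with Partek 6.6, per the submitters' processing notes. No source used here names a genome build. Of 28350 probe sets, 21780 carried 1 symbol, 1618 several and 4952 none. Those with 1 symbol were kept, with 1 probe set per gene by the highest mean over the 15 arrays, which left 19933 genes. No 2 arrays held identical values. Depth does not apply to arrays, and the number of arrays limits the precision.

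Arrays were grouped by their titles. limma 3.58.1 in R 4.3.3 fitted 1 mean per line over all 15 arrays, with moderated errors, and p-values were adjusted over all 19933 genes by the Benjamini-Hochberg method (threshold 0.05). The same fit gave the test of the D218 pair against the R216 pair. The fitting code was tested on simulated data.

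The text names Gata1, the 12 largest rises and 12 largest falls, up to 4 members of each of 40 gene lists, a fixed panel of genes, and the 5 largest gaps each way between the pairs, passing over placeholder symbols and small RNAs. Other list members are named to fill out a list, after their values were seen. The members and lists were chosen with earlier results of these data known. Alternatives were other normalizations, filters, error models and thresholds, and the omission of each array.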

Additional observations from a re-analysis of the deposited data

Results flagged for a closer look

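Probe sets without a single gene symbol took no part in the comparison, yet some of them differed between D218Y and D218G by the same test. Among the 1618 probe sets with several symbols 307 were called (19.0%), 151 higher and 156 lower in D218Y. Among the 4952 with no symbol 788 were called (15.9%), 384 higher and 404 lower. Both shares are below the 33.0% of genes with 1 symbol. Level was not matched, and calls were more frequent among genes above the median intensity (6147 of 9966).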

How the results depend on the processing

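Of the 171 named genes 167 were called, and 151 of the 171 kept direction and side of the threshold under every alternative run on them (12 were too dim for the filter on genes above the median intensity); 16 called genes lost the call under at least 1. Signs turned for Ldb1 (0.0012 with centred arrays and no D218G replicate 3), Bcl2l1 (0.0150, same setting), Pf4 (-0.0393 without D218G replicate 3, in all arrays or in the 5 arrays left, -0.0140 with array weights, and up to 0.0402 with another array omitted) and Il4ra (0.0445 with centred arrays, 0.0264 with the array median as a covariate, 0.0518 with centred arrays and no D218G replicate 3). The count of falls, 3107, moved most: 1615 with centred arrays, 1844 with centred arrays and no D218G replicate 3, 5247 in the 5 arrays of the 2 lines without it, 6385 with array weights and 2067 at an adjusted p under 0.01. Array weights called 10775 genes in all. Rises numbered 5756, and rises past 2-fold 343, with centred arrays and no D218G replicate 3. The pair comparison had 1609 falls with centred arrays and 4485 with array weights. The cause was not tested.

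Rises made up 52.8% of calls as deposited, 69.9% with centred arrays, 75.7% with centred arrays and no D218G replicate 3 (43.0% without centring) and 40.7% with array weights. Omitting 1 array at a time gave 5542 to 9176 calls, 3054 to 3945 rises and 2462 to 5231 falls, the upper ends without D218G replicate 3; past 2-fold, 187 to 243 rises and 92 to 102 falls. For the pair comparison it gave 5251 to 6876 calls, 2893 to 3536 rises and 2247 to 3340 falls, with 340 to 431 and 207 to 229 past 2-fold. Gata1 ranged from -0.2972 to -0.2751.

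Same-numbered D218Y and D218G arrays correlated at -0.22, 0.39 and 0.05 in their deviations from the line means, so the numbers were not taken as pairs. With the replicate number as a block, 6166 genes were called (3337 higher, 2829 lower), and 5418 in the pair comparison. Of the counts per gene list, 215 values under alternatives moved and 1465 did not move beyond 1.5 times. The 3 arrays a line, the 1 array that stands apart and the unstated number of lines per construct limit all results.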

Other observations

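Some gene groups not described above were also counted. Over all genes 17.4% were higher and 15.6% lower in D218Y (19.8% and 26.2% without D218G replicate 3), and several counts below lie near these shares. Of 20 genes of the low oxygen response 10 rose and 3 fell in D218Y, 10 and 6 without D218G replicate 3 and 10 and 1 with centred arrays. Vegfa, the vascular growth factor, rose by 0.83, Bnip3, a mitophagy receptor, by 0.97, and Egln1, the oxygen-sensing prolyl hydroxylase, by 0.60. Hif1a, the factor that drives the response, rose by 0.23. In the BCL2 family 5 of 16 genes rose and 5 fell, 6 and 9 without D218G replicate 3 and 5 and 1 with centred arrays. Bid, which promotes cell death, rose by 0.75 and Mcl1, which prevents it, by 0.21, while Bcl2l1, the survival gene of late erythroid cells, was at -0.13. Of 20 interferon response genes 3 rose and 5 fell, with the same counts without that array and 4 and 2 with centred arrays, led by Irgm1, an immunity-related GTPase, at 0.57, and Irf9, a part of the interferon-activated factor, at -0.56. In the Kruppel-like family 2 of 20 rose and 7 fell, 3 and 11 without D218G replicate 3 and 3 and 4 with centred arrays, and the largest difference was Klf10 at 0.97. Among annexins and S100 genes Anxa2 was the one past 2-fold of 14, with 6 higher and 0 lower; without D218G replicate 3 it was 5 and 3.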
